A study of Mus musculus with 6 samples.

Results

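A group of 10 genes that mark the macrophages of adipose tissue and their subtypes was described in inguinal white adipose tissue (IWAT) of mice that carry a nonsense variant of *Ebf2*. The genes were taken by symbol from the 55491 entries of the gene table, as markers of these cells, with earlier results of these data already known. *Adgre1*, *Cd68* and *Csf1r* mark macrophages in general. *Mrc1*, *Cd163*, *Lyve1* and *Timd4* mark resident and perivascular macrophages, and *Trem2*, *Itgax* and *Cd9* mark the lipid-associated macrophages that accumulate in obese fat. Each symbol matched 1 entry, and all 10 genes had 10 counts or more in each library.

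The study sequenced bulk RNA of IWAT from male mice on a C57BL/6J background, aged 4 weeks and fed regular chow, with 1 library per mouse. One group was wild-type (*Ebf2*+/+, n = 3) and the other was heterozygous for the knock-in allele p.E165X (*Ebf2* E165X/+, n = 3), which replaces a codon of the transcription factor EBF2 with a stop codon. The allele was made with CRISPR in the germline, so every cell of the mouse carries it, macrophages as well as fat cells. The comparison asks whether macrophage genes differ between the genotypes in young fat. Total counts were between 106820505 and 135039488 per library.

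Macrophages are the most numerous immune cells of lean fat, where they clear dead adipocytes, take up lipid and lie along blood vessels. Resident macrophages carry scavenger and mannose receptors and persist without constant renewal from blood. In obesity, monocytes enter the tissue and give rise to macrophages that surround dying adipocytes and express *Trem2*, *Itgax* and *Cd9*. Many of these genes are shared with other cells: *Lyve1* with lymphatic endothelium, *Itgax* with dendritic cells, *Timd4* with macrophages of lymph nodes, and *Cd9* with many stromal and blood cells.

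*Ebf2* served to check the labels. Its counts were 4603, 4357 and 4611 in the wild-type mice and 2635, 2863 and 2697 in the heterozygous mice, so that the genotypes did not overlap. The fold was 0.571 (95% interval 0.505 to 0.646), at an adjusted *P* of 0.0596 by the quasi-likelihood test of edgeR and of 2.49e-13 by DESeq2 without independent filtering.

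All 17 macrophage and myeloid markers outside the group were detected with 10 counts or more in each library. The one with the most counts was lysozyme *Lyz2*, at 829.4 ± 94.7 CPM in wild-type mice and 907.8 ± 69.8 CPM in heterozygous mice (SD, n = 3 each). CPM are counts scaled to a library total of 1000000, after correction of the totals by TMM factors. The complement genes *C1qa*, *C1qb* and *C1qc*, which tissue macrophages make in large amounts, lay between 94.7 and 150.1 CPM in the 6 libraries.

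Other tissues were present too and differed between mice. Skeletal muscle markers summed to 38570 CPM in heterozygous mouse 3, against 658.6 to 6809 CPM in the other 5 libraries, and wild-type mouse 2 was the next highest. Markers of lymph node stroma and high endothelial venules summed to between 508.6 and 645.1 CPM in every library. The one with the most counts was *Glycam1*, a ligand of L-selectin on those venules.

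The windows upstream of *Mrc1* and *Timd4* are shown because these genes had different patterns over the 6 mice. In the GENCODE annotation *Mrc1* lies at chr2:14229392-14332057 and *Timd4* at chr11:46810800-46844332, both on the plus strand. The windows end before the annotated gene start, come from RefSeq (GRCm38.p6) and are written 5′ to 3′ on the plus strand. The 228 bases before the GENCODE start of *Mrc1* are chr2:14229164-14229391 and the 250 bases before the RefSeq start of *Timd4*, which stop 1 base short of the GENCODE start, are chr11:46810549-46810798. Capitals mark GAGGAA or its reverse complement TTCCTC, the PU box that the myeloid factor PU.1 is known to bind.
Mrc1: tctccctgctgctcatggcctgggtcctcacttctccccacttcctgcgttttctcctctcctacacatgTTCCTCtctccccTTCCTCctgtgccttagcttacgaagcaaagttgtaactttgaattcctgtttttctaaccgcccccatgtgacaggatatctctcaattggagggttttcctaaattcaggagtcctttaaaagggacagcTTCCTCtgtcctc
Timd4: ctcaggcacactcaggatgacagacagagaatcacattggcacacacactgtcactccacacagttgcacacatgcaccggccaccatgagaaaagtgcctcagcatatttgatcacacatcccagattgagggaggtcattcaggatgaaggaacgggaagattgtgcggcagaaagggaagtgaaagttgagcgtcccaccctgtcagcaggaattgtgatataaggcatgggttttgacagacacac

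A window was matched for 7 of the 10 genes, the others being *Adgre1*, *Csf1r* and *Lyve1*. In the 250 bases before the RefSeq start, *Mrc1* held 3 matches to the PU box, *Cd68* and *Trem2* held 1 each, and *Timd4*, *Cd163*, *Itgax* and *Cd9* held none. Of all 32851 promoter windows searched the same way, on both strands, 23.3% held at least 1 match and 0.429% at least 3. The longer form GAGGAAGT and the core of the EBF motif, CCCNNGGG, were each found in 0 of the 7 windows of 300 bases, against 3.2% and 13.7% of all windows. The GAGGAA search was added after the longer form gave no match. These are matches of letters only.

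None of the 10 genes passed the test between the genotypes. All had a fitted fold above 1, between 1.05 for *Csf1r* and 1.15 for *Lyve1*, but the values of heterozygous and wild-type mice overlapped for every gene. Of the 10 genes, 0 were called by edgeR at an adjusted *P* under 0.05 with a fold above 1.5, where 0.00918% of the 32664 genes tested were called. DESeq2 also called 0 of the 10, against 0.3% of all genes with independent filtering and 0.282% without it, and so did limma-voom, against 0.0122%. By each of the 3 tools 0 of the 10 had an unadjusted *P* under 0.05, against 4.77% of all genes by edgeR, 4.85% by DESeq2 and 5.38% by limma-voom. Of all 18905 genes that reached 10 counts in each library, 13.4% had no overlap between the genotypes, 6.66% with the heterozygous mice higher and 6.78% with them lower. In bulk tissue, fewer cells of a type and less RNA per cell cannot be told apart, so each value below is a level per tissue and not per macrophage.

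The median log2 fold change of the 10 genes was 0.15, against 0.01 for all genes tested. A fold above 1 was fitted for 52.1% of all genes and for 56.1% of those 18905 genes. The positive sign rested largely on 1 animal, wild-type mouse 2, in which 8 of the 10 genes had their lowest value of the 6 libraries. That library was the lowest for 16.3% of the 18905 genes. Without wild-type mouse 2 the median was -0.03, and 4 of the 10 genes were fitted higher in heterozygous mice, against 50.5% of all genes tested and 51.3% of the 18905 genes. Muscle markers were higher in this mouse than in the other wild-type mice, and the part of muscle in this pattern was not tested.

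**Figure D1:**
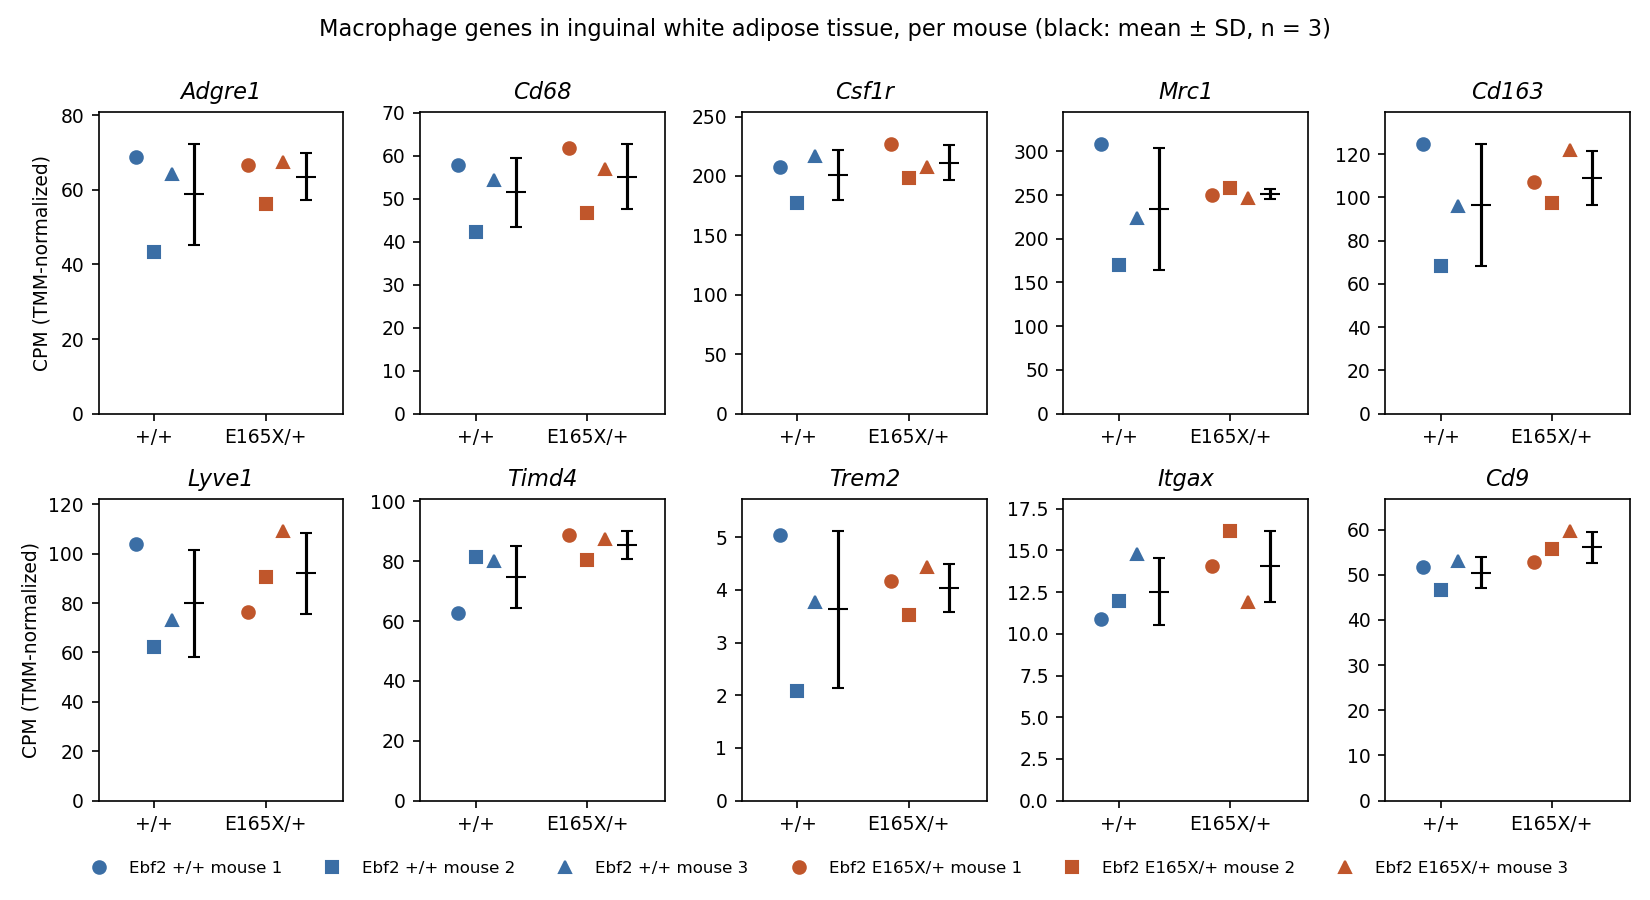
CPM of the 10 macrophage genes (y axis, from 0) in each of the 6 mice, by genotype (x axis); black bars are mean ± SD, n = 3. In every panel the 2 genotypes overlap, and the square of wild-type mouse 2 is the lowest point in all panels but *Timd4* and *Itgax*.

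Among the general macrophage genes, *Adgre1* encodes the F4/80 antigen, an adhesion receptor. It had 68.8, 43.4 and 64.1 CPM in wild-type mice 1 to 3 and 66.7, 56.3 and 67.6 CPM in heterozygous mice 1 to 3. Wild-type mouse 2 was the lowest and wild-type mouse 1 the highest, so that the heterozygous values lay inside the wild-type range. The log2 fold change was 0.11 (SE 0.17), with a 95% interval of the fold from 0.821 to 1.422 and an adjusted *P* of 0.871 (edgeR).

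*Cd68*, a lysosomal membrane protein of phagocytes, had 57.8, 42.4 and 54.3 CPM in wild-type mice and 61.7, 46.8 and 56.98 CPM in heterozygous mice. Mouse 2 was the lowest of each genotype. The labels do not tie mice of the 2 genotypes to each other by replicate number. Its log2 fold change was 0.10 (SE 0.14), and the interval of the fold ran from 0.851 to 1.35.

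*Csf1r* is the receptor for CSF1 and IL-34, on which the survival of macrophages depends. Its values were 207.9, 177.5 and 217.1 CPM in wild-type mice and 227.0, 198.6 and 207.9 CPM in heterozygous mice. This was the narrowest spread of the general macrophage genes, with a ratio of 1.22 between the highest and lowest wild-type mouse. Between the genotypes the log2 fold change was 0.07 (SE 0.11), with an interval of the fold from 0.885 to 1.25. Exons of *Csf1r* overlap those of *Hmgxb3* on the opposite strand, which had 3450 to 4202 counts, while *Csf1r* had 18708 to 26901. The strand setting of the counting is not given in the sources used here, so reads of the shared exons could not be told apart.

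Among the resident macrophage genes, *Mrc1* encodes the mannose receptor CD206, which takes up glycoproteins. It had 308.5, 170.4 and 223.3 CPM in wild-type mice and 250.3, 257.7 and 246.7 CPM in heterozygous mice. The 3 heterozygous values lay close together, within a ratio of 1.04, while the wild-type values differed by a ratio of 1.81 and lay on both sides of them. The log2 fold change was 0.10 (SE 0.20), and the fold interval reached from 0.781 to 1.48.

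*Cd163*, the scavenger receptor for haemoglobin bound to haptoglobin, had 124.7, 68.3 and 95.8 CPM in wild-type mice and 107.1, 97.3 and 122.1 CPM in heterozygous mice. Again wild-type mouse 1 was the highest and wild-type mouse 2 the lowest. For *Cd163* the log2 fold change was 0.18 (SE 0.20), and its interval, a fold of 0.813 to 1.57, did not exclude a rise of 1.5-fold.

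*Lyve1*, a hyaluronan receptor, had 104.0, 62.4 and 73.3 CPM in wild-type mice and 76.4, 90.6 and 109.2 CPM in heterozygous mice. The highest value was that of heterozygous mouse 3, just above wild-type mouse 1. Of the 10 genes it had the largest fitted log2 fold change, 0.20 (SE 0.20), with a fold interval from 0.829 to 1.60. Lymphatic endothelial markers (*Prox1*, *Flt4*, *Reln*, *Mmrn1* and *Pdpn*) summed to 63.5, 73.7 and 73.3 CPM in wild-type mice and 76.7, 71.4 and 95.6 CPM in heterozygous mice, with the most counts in *Flt4*. Heterozygous mouse 3 was therefore the highest for both, but wild-type mouse 1 was the lowest for the lymphatic markers and the second highest for *Lyve1*. The part of lymphatic endothelium in the level of *Lyve1* was not tested.

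*Timd4* encodes TIM-4, a receptor for phosphatidylserine on dying cells that marks long-lived resident macrophages. Its order of mice differed from that of the other resident genes, with 62.7, 81.5 and 79.9 CPM in wild-type mice and 88.8, 80.2 and 87.5 CPM in heterozygous mice. Wild-type mouse 1, the highest for *Mrc1* and *Cd163*, was the lowest for *Timd4*. Wild-type mouse 2 lay above 1 of the 3 heterozygous mice. The log2 fold change was 0.19 (SE 0.11), with a fold interval from 0.956 to 1.37 and an adjusted *P* of 0.783 (edgeR).

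Of the genes of lipid-associated macrophages, *Trem2*, a lipid receptor that signals through the adaptor TYROBP, was the gene of the group with the fewest counts. It had 606, 219 and 468 counts in wild-type mice and 482, 441 and 567 counts in heterozygous mice, which is 5.04, 2.08 and 3.78 CPM against 4.17, 3.53 and 4.43 CPM. The ratio between wild-type mice 1 and 2 was 2.43, the largest within a genotype among the 10 genes, and all heterozygous values lay between these 2 mice. Its log2 fold change was 0.15 (SE 0.31), and the fold interval from 0.679 to 1.82 was the widest of the 10.

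*Itgax*, which encodes the integrin CD11c of dendritic cells and some macrophages, had 10.9, 12.0 and 14.8 CPM in wild-type mice and 14.1, 16.2 and 11.9 CPM in heterozygous mice. Wild-type mouse 1 was the lowest and heterozygous mouse 2 the highest. The log2 fold change was 0.16 (SE 0.16), with a fold interval from 0.868 to 1.45.

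*Cd9*, a tetraspanin of many cell types, varied least among wild-type mice, with 51.8, 46.7 and 53.0 CPM in wild-type mice and 52.8, 55.8 and 59.7 CPM in heterozygous mice. The heterozygous mice lay above the wild-type mice except for wild-type mouse 3, which passed heterozygous mouse 1 by a small margin. The log2 fold change was 0.15 (SE 0.080), with the narrowest fold interval of the 10, from 0.976 to 1.27, and the smallest unadjusted *P*, 0.0968 by edgeR (adjusted *P* = 0.783).

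For 7 of the 10 genes the 95% interval of the fold lay within a rise or fall of 1.5-fold, which held for 33.6% of all genes tested. Of those 32664 genes only 18905 reached 10 counts in each library, as the 10 genes did. The share among the 18905 was not computed, so the 10 genes were not compared with genes of like counts. The upper bounds for *Cd163*, *Lyve1* and *Trem2* were above 1.5, so a rise of that size in these 3 genes was not excluded with 3 mice a genotype. No interval reached down to a fold of 0.667. For all 10 genes the ratio between the highest and lowest wild-type mouse was larger than the ratio of the genotype means. A range over 3 mice is a different measure from a ratio of means. The share of all genes for which this held was not computed, so the count is not particular to the 10 genes.

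**Figure D2:**
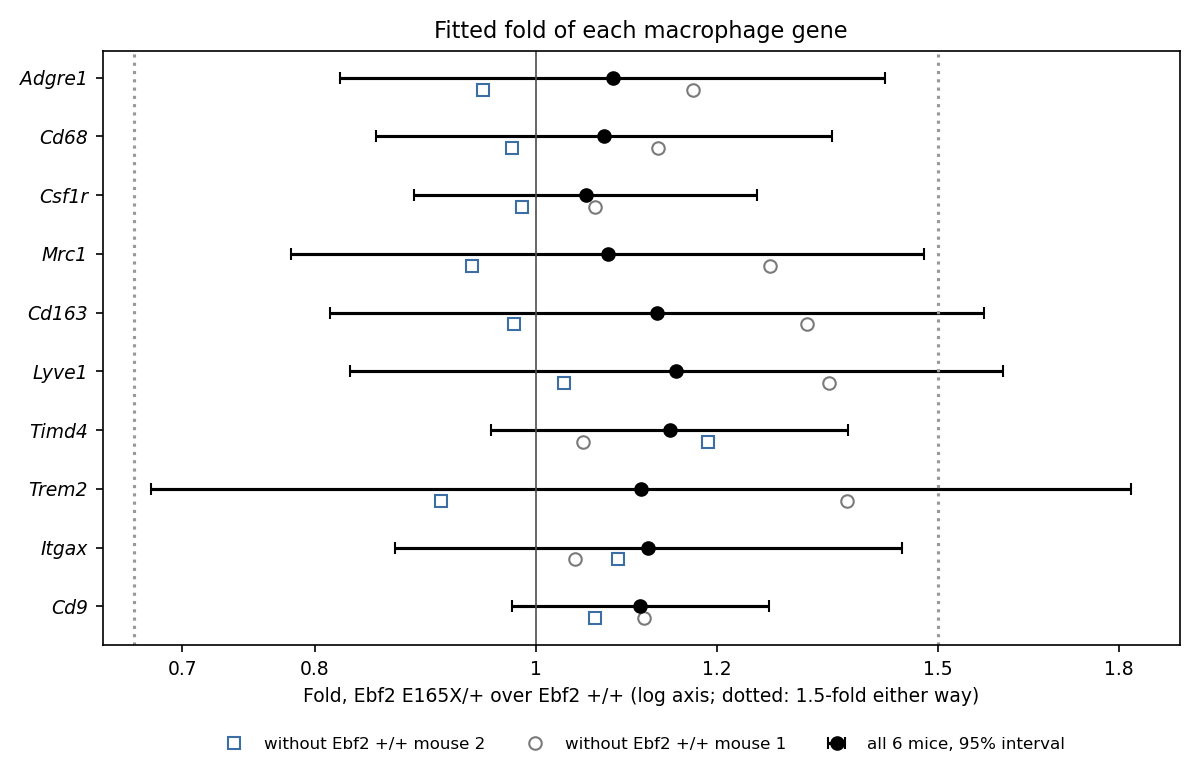
Fitted fold of heterozygous over wild-type mice (log axis) for the 10 genes, with 95% intervals over all 6 mice (black) and the fold without wild-type mouse 1 (grey circles) or wild-type mouse 2 (blue squares); dotted lines are 1.5-fold either way. Every black interval spans 1, and 6 of the 10 blue squares lie below 1.

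The folds depended on wild-type mice 1 and 2. Without wild-type mouse 2 the fitted fold was below 1 for *Adgre1*, *Cd68*, *Csf1r*, *Mrc1*, *Cd163* and *Trem2*, between 0.908 and 0.986. Without wild-type mouse 1 it rose to 1.27 for *Mrc1*, 1.31 for *Cd163* and 1.34 for *Lyve1*, and these 3 genes then showed no overlap between the genotypes, as did 20.9% of the 18905 genes. Of these, *Mrc1* and *Lyve1* then had an unadjusted *P* of 0.0351 and 0.0352, where 3.27% of all genes were under 0.05, but the adjusted *P* of each was 0.908 (edgeR). For *Timd4* the fold was 1.05 without wild-type mouse 1 and 1.19 without wild-type mouse 2, and for *Itgax* 1.04 and 1.09. Leaving out heterozygous mouse 3, the library with the most muscle RNA, left all 10 folds above 1, with a median log2 fold change of 0.08.

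The genes fell into different orders over the wild-type mice. Relative to the wild-type mean, the mean log2 level of the 10 genes was 0.193, -0.278 and 0.086 in wild-type mice 1 to 3 and 0.176, 0.097 and 0.223 in the heterozygous mice. The resident macrophage list, which holds no gene of the group, ran alike, at 0.270, -0.372 and 0.102 in wild-type mice and 0.156, 0.026 and 0.240 in heterozygous mice. *Timd4* and *Itgax* were lowest in wild-type mouse 1, as were 23.9% of the 18905 genes. Lymphocyte markers were lowest there too. B cell markers summed to 404.3, 636.6 and 642.6 CPM in wild-type mice and 664.6, 756.7 and 689.4 CPM in heterozygous mice, with the most counts in *Ms4a1*, the CD20 antigen. T and NK cell markers summed to 237.1, 303.7 and 315.4 CPM against 328.0, 363.9 and 311.3 CPM, and dendritic cell markers to 132.9, 153.0 and 170.4 CPM against 167.2, 171.9 and 161.0 CPM. The inguinal depot holds a lymph node. Lymph node stroma and venule markers summed to 508.6, 526.4 and 514.3 CPM in wild-type mice and 645.1, 610.7 and 520.7 CPM in heterozygous mice. The part of lymph node tissue in the levels of *Timd4* and *Itgax* was not tested.

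**Figure D3:**
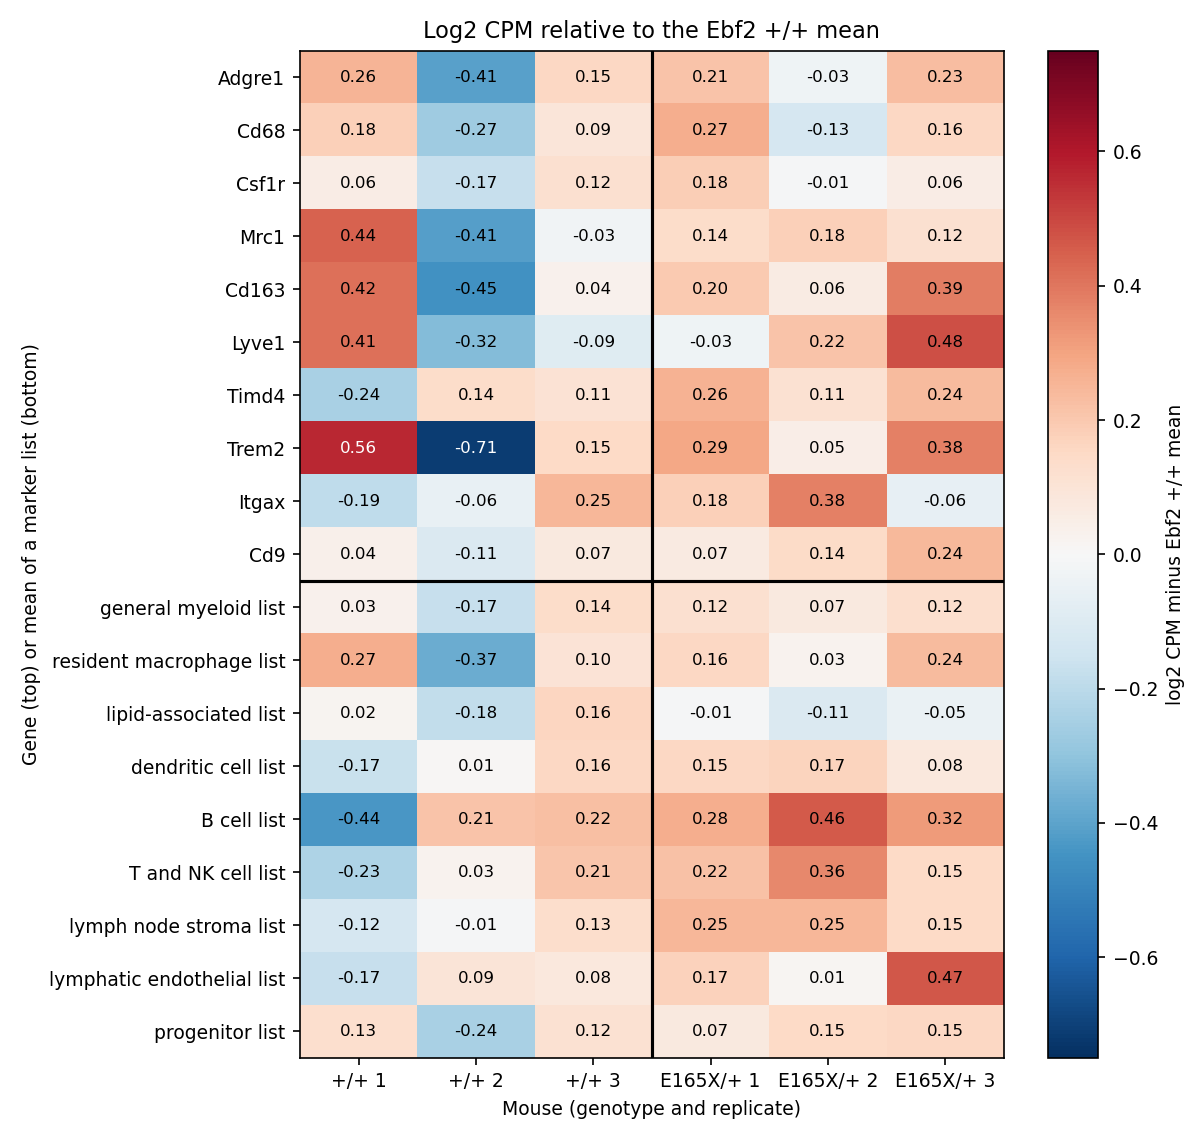
Log2 CPM relative to the wild-type mean in each mouse (columns) for the 10 genes (top rows) and the mean of 9 marker lists (bottom rows), with red above and blue below the wild-type mean. Wild-type mouse 2 is lowest for 8 genes and the resident list (-0.37), while wild-type mouse 1 is lowest for *Timd4*, *Itgax* and the B cell list (-0.44).

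The balance between subtypes was read within each library, as the log2 CPM of a subtype gene minus the mean log2 CPM of *Adgre1*, *Cd68* and *Csf1r*. With all 6 mice, none of the 7 subtype genes separated the genotypes on this scale, where 5.7% of 18902 genes that reached 10 counts in each library did. The differences between heterozygous and wild-type means were 0.042 for *Mrc1*, 0.109 for *Cd163*, 0.118 for *Lyve1*, 0.099 for *Timd4*, 0.133 for *Trem2*, 0.060 for *Itgax* and 0.048 for *Cd9*, each smaller than the wild-type SD, which was between 0.154 and 0.414. *Timd4* and *Trem2* varied most among wild-type mice and in opposite orders. For *Timd4* the values relative to the wild-type mean were -0.406, 0.419 and -0.013 in wild-type mice, and 0.037, 0.170 and 0.090 in heterozygous mice. For *Trem2* they were 0.400, -0.426 and 0.027 in wild-type mice, and 0.065, 0.107 and 0.227 in heterozygous mice. These differences depended on single mice: without wild-type mouse 1 the genotypes separated for *Mrc1* (0.181), *Cd163* (0.235) and *Trem2* (0.333), without wild-type mouse 2 for *Timd4* (0.308), and without heterozygous mouse 1 for *Lyve1* (0.304), each higher in heterozygous mice. The shares of the 18902 genes that separated in these 3 cases were 11.3%, 12.9% and 9.76%. *Mrc1*, *Timd4*, *Trem2*, *Itgax* and *Cd9* changed sign with some mouse left out.

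**Figure D4:**
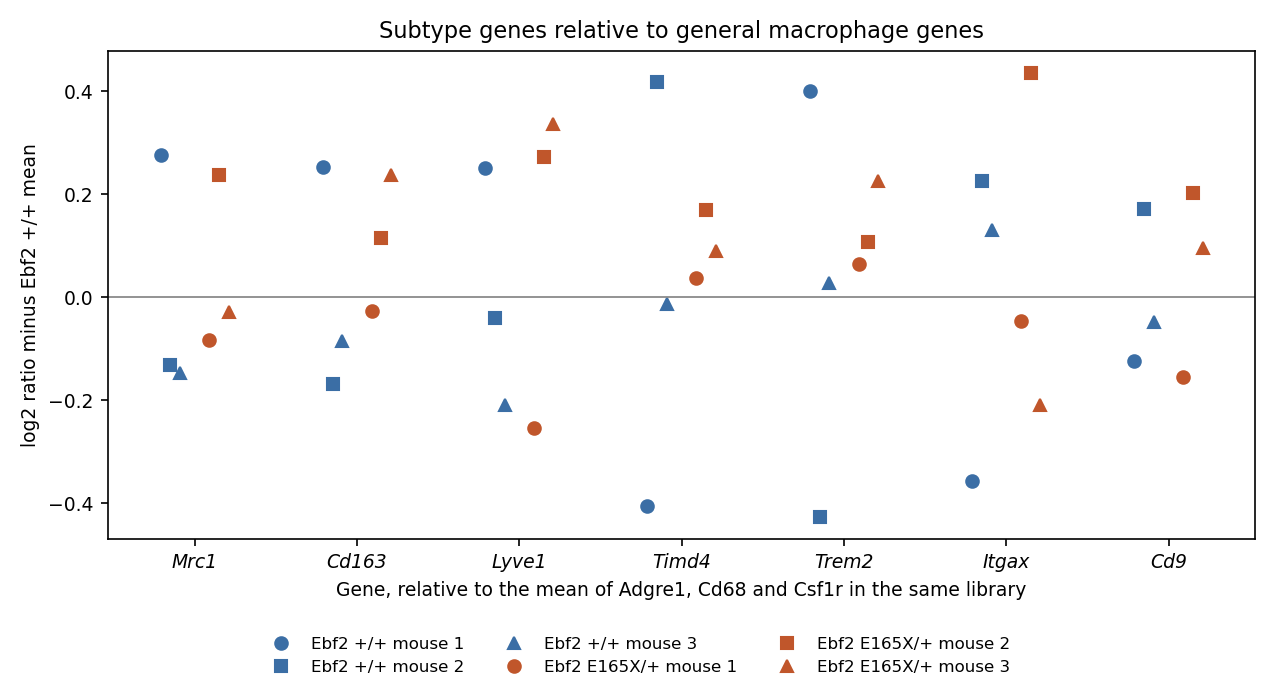
Log2 ratio of each subtype gene to the mean of *Adgre1*, *Cd68* and *Csf1r* in the same library, minus the wild-type mean (y axis), per mouse; colours are genotypes and shapes are mice. The genotypes overlap for all 7 genes, and wild-type mice 1 and 2 lie at opposite ends for *Timd4* and *Trem2*.

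Related genes were followed in lists. Of 237 distinct genes in these lists, the 10 not among them, 0 were called by edgeR and 21 (8.86%) had an unadjusted *P* under 0.05, where 4.77% of all genes tested had one. With 1 mouse left out, the 21 became 16 (6.75%) without wild-type mouse 1 and up to 38 (16%) without wild-type mouse 3. The shares of all genes tested were then 3.27% and 5.4% (edgeR). DESeq2 with independent filtering called 2 of the 237 genes (0.844%, where it called 0.3% of all genes), *Ltf*, a neutrophil granule protein, and *Mcpt4*, a mast cell protease.

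Of the 17 general macrophage and myeloid markers, 15 were fitted higher and 2 lower, with a median log2 fold change of 0.12. One of them, *Cd14*, the co-receptor for lipopolysaccharide, had an unadjusted *P* under 0.05 and was on the lower side, as were 3.09% of all genes. Its values were 16.4, 13.7 and 14.9 CPM in wild-type mice and 13.3, 12.0 and 12.0 CPM in heterozygous mice. The genotypes did not overlap, as for 13.4% of the 18905 genes, and the log2 fold change was -0.27 (SE 0.11, adjusted *P* = 0.783).

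Of the 13 genes of resident macrophages, 10 were fitted higher and 3 lower. The one with the most counts, *F13a1*, the coagulation factor XIII A chain, had 338.3, 190.5 and 248.0 CPM in wild-type mice and 296.0, 271.0 and 294.9 CPM in heterozygous mice, which is the order of *Mrc1* among the wild-type mice. *Ccl8*, a chemokine of resident macrophages, had the only unadjusted *P* under 0.05 in this list, on the higher side, as for 1.68% of all genes. It had 50.8, 37.8 and 59.0 CPM in wild-type mice and 74.7, 67.9 and 67.2 CPM in heterozygous mice. All heterozygous mice lay above all wild-type mice, with a log2 fold change of 0.51 (SE 0.15), an unadjusted *P* of 0.0114 and an adjusted *P* of 0.783 (edgeR). Without wild-type mouse 2 it was 0.34 (SE 0.10).

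Of the 12 genes of lipid-associated macrophages, 4 were fitted higher and 8 lower, with a median log2 fold change of -0.04, and 0 had an unadjusted *P* under 0.05. *Ctsl*, the protease cathepsin L and the gene of the list with the most counts, had 367.8 ± 10.9 CPM in wild-type mice and 365.8 ± 2.5 CPM in heterozygous mice (SD, n = 3 each). *Spp1* (osteopontin) lay between 1.44 and 3.26 CPM in the 6 libraries, and *Gpnmb*, a glycoprotein of lipid-loaded macrophages, lay between 6.07 and 14.4 CPM. The highest *Gpnmb* value was in wild-type mouse 3 and the highest *Spp1* value in heterozygous mouse 3.

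Genes of monocytes and of activation states were fitted both ways. Of 8 monocyte genes 7 were fitted higher and 1 lower, of 10 inflammatory products 5 and 5, and of 8 genes of alternative activation 3 and 5. *Chil3*, a chitinase-like protein of monocytes and alternatively activated macrophages, had 4.04, 4.36 and 4.10 CPM in wild-type mice and 5.75, 5.82 and 7.21 CPM in heterozygous mice. The genotypes did not overlap, with a log2 fold change of 0.59 (SE 0.15) and an adjusted *P* of 0.783 by edgeR. By DESeq2 without independent filtering its adjusted *P* was 0.0238, with no call because the fold of that fit did not pass 1.5. *Nos2*, the inducible nitric oxide synthase, had 15.9, 12.1 and 10.8 CPM in wild-type mice and 9.01, 9.61 and 8.75 CPM in heterozygous mice (log2 fold change -0.50, SE 0.16, adjusted *P* = 0.783 by edgeR).

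For the ligands of CSF1R the values of the genotypes overlapped. *Csf1*, which stromal cells supply, lay between 70.5 and 78.4 CPM in the 6 libraries, and *Il34* between 6.50 and 7.74 CPM. In the list of these ligands, the related CSF2 system and lineage factors, 8 genes were fitted higher and 3 lower, and *Runx1* alone had an unadjusted *P* under 0.05. *Runx1*, a factor of blood lineages, had 18.5 ± 1.7 CPM in wild-type and 22.0 ± 1.0 CPM in heterozygous mice. Its log2 fold change was 0.25 (SE 0.096), with an adjusted *P* of 0.783 (edgeR). An unadjusted *P* under 0.05 on the higher side was found for 1.68% of all genes.

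The partners, sheddases and paralogs of TREM2 were all fitted higher in heterozygous mice, 11 of 11, where 56.1% of the 18905 genes were. The median log2 fold change of these 11 genes was 0.25. Relative to the wild-type mean, their mean log2 level was -0.226, 0.011 and 0.215 in wild-type mice 1 to 3. In heterozygous mice 1 to 3 it was 0.260, 0.120 and 0.238, so the genotypes overlapped. The kinase gene *Syk* had 96.8, 112.7 and 128.5 CPM in wild-type mice and 139.0, 136.5 and 141.3 CPM in heterozygous mice. The phospholipase gene *Plcg2* had 35.2, 44.4 and 43.7 CPM against 47.1, 53.4 and 46.5 CPM. Both were without overlap, as were 6.66% of the 18905 genes on the higher side, and had an unadjusted *P* under 0.05, with log2 fold changes of 0.30 (SE 0.11) and 0.25 (SE 0.11) and an adjusted *P* of 0.783 each (edgeR). Without wild-type mouse 1 their log2 fold changes were 0.19 and 0.14, with an unadjusted *P* of 0.0654 and 0.14 (edgeR). Both enzymes also serve B cells, whose markers were lowest in wild-type mouse 1, as were *Syk* and *Plcg2*; the part of B cells was not tested. *Tyrobp*, the adaptor that TREM2 needs for signalling, lay between 28.1 and 38.4 CPM with a log2 fold change of 0.02 (SE 0.12).

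For the remaining relatives, 13 of 16 receptors and bridges for apoptotic cells were fitted higher and 0 had an unadjusted *P* under 0.05. The same counts were 8 of 11 and 1 (*Scara3*) for scavenger receptors, 4 of 8 and 1 (*Hpx*) for haem and iron handling, 6 of 9 and 0 for tetraspanins and partners of CD9, and 6 of 7 and 1 (*Fermt3*) for beta-2 integrins and their ligands. For hyaluronan receptors and enzymes they were 6 of 10 and 2, *Cemip2* on the higher side and *Hyal1* on the lower. *Scara3*, a scavenger receptor of many stromal cells, went from 41.7 ± 5.6 CPM to 54.3 ± 0.3 CPM, and *Fermt3* (kindlin-3), which activates integrins of blood cells, from 60.1 ± 5.3 CPM to 71.1 ± 4.0 CPM (SD, n = 3 each). *Cemip2*, *Hyal1* and *Hpx* had log2 fold changes of 0.25 (SE 0.082), -0.31 (SE 0.11) and 0.70 (SE 0.30), the last at 0.171 to 0.429 CPM. None of these 5 genes passed the test after adjustment. For *Scara3* and *Fermt3*, without 1 mouse at a time, the log2 fold changes ran from 0.26 to 0.44 and from 0.17 to 0.29.

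The gene with the most counts in each of the other lists around the macrophage had an unadjusted *P* of at least 0.0789 (edgeR). The log2 fold change was 0.05 for *Ace* (monocytes), 0.17 for *Cd86* (inflammatory products), 0.01 for *Il4ra* (alternative activation), 0.27 for *Maf* (lineage factors) and 0.03 for *Adam10* (TREM2 sheddases). It was -0.01 for *Lrp1* (apoptotic cells), -0.14 for *Fth1* (iron), -0.19 for *Cd36* (scavenger receptors), 0.10 for *Cd63* (tetraspanins), 0.28 for *Itgal* (beta-2 integrins) and 0.11 for *Cd44* (hyaluronan). For the other cell types, *Ccr7* (dendritic cells), *S100a9* (neutrophils), *Lck* (T cells), *Pecam1* (blood endothelium), *Myh4* (muscle), *Hbb-bs* (erythroid cells), *Lpl* (adipocytes), *Dcn* (progenitors) and *Krt5* (epithelium) likewise had an unadjusted *P* above 0.05.

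**Figure D5:**
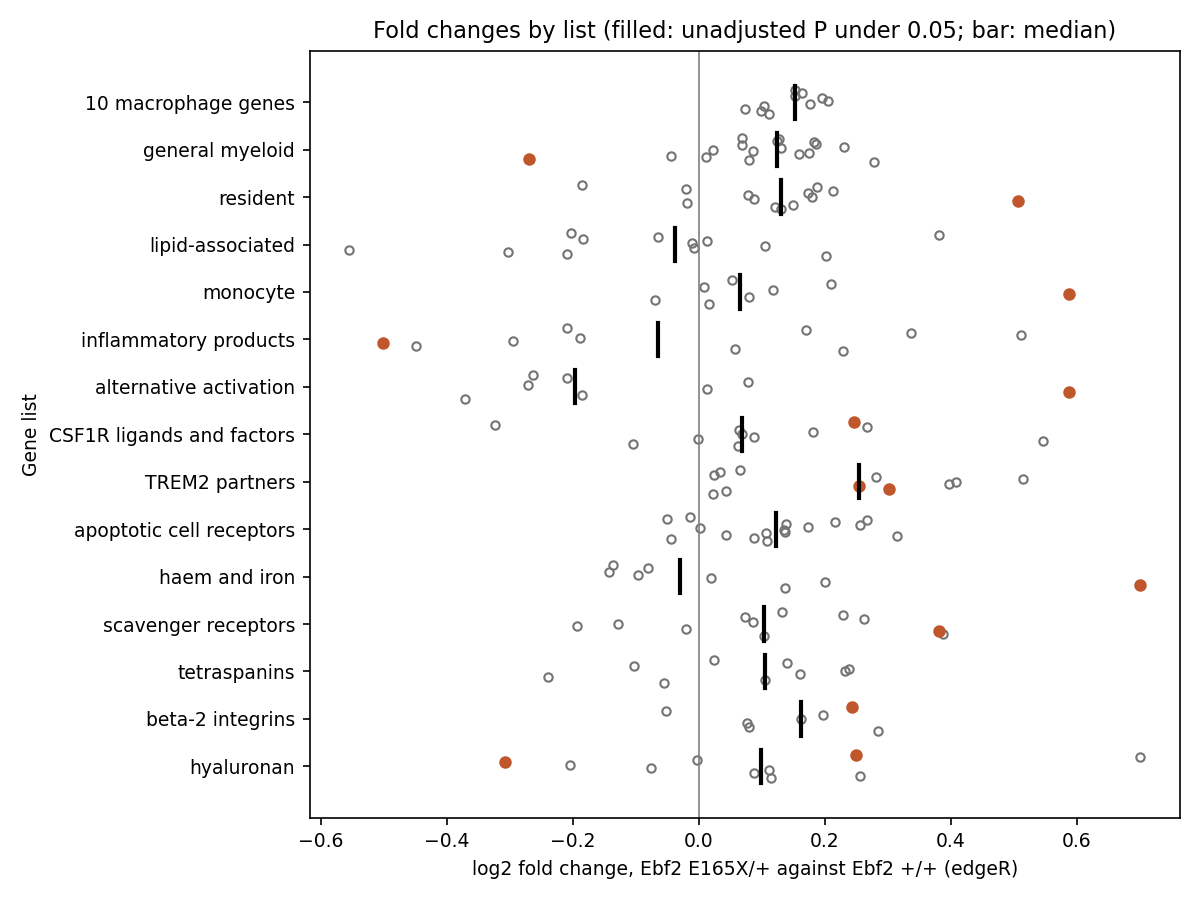
Fitted log2 fold change (x axis) of each gene in the 10-gene group and 14 related lists (y axis); filled points have an unadjusted *P* under 0.05 by edgeR and bars are medians. The 10 genes lie between 0.07 and 0.20 with no filled point, and the list medians lie between -0.20 and 0.25.

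Other immune cells were present beside the macrophages. Of mast cell markers 4 of 6 had an unadjusted *P* under 0.05, all higher in heterozygous mice (*Mcpt4*, *Cpa3*, *Tpsb2* and *Ms4a2*), where 1.68% of all genes tested had such a *P* on the higher side. The list summed to 69.0, 58.2 and 77.6 CPM in wild-type mice and 98.4, 87.8 and 101.4 CPM in heterozygous mice. *Mcpt4*, with the most counts of the list, had 19.3 ± 1.6 CPM and 29.3 ± 1.2 CPM (log2 fold change 0.60, SE 0.087, adjusted *P* = 0.229 by edgeR and 1.91e-05 by DESeq2 without independent filtering). For neutrophil markers the count on the higher side was 3 of 8 (*Ltf*, *Camp* and *Ngp*), and for B cell, T and NK cell, and dendritic cell markers it was 0. Still, 6 of the 7 B cell markers had no overlap and were higher in heterozygous mice, as were 6.66% of the 18905 genes. Their sum did not overlap either, with a ratio of the genotype means of 1.25, which was 1.10 without wild-type mouse 1. Neutrophil markers were highest in heterozygous mouse 3. Without it the ratio of their sums went from 1.39 to 1.21, and the log2 fold changes of *Ltf*, *Camp* and *Ngp* from 0.75, 0.73 and 0.55 to 0.57, 0.47 and 0.26, with an unadjusted *P* of 0.0185, 0.0671 and 0.0737 (edgeR). Adipocyte markers were fitted lower in 8 of 8 cases, with sums of 17320 ± 1370 CPM and 13990 ± 3114 CPM (SD, n = 3 each) and 0 unadjusted *P* under 0.05. Heterozygous mouse 3, the one with the most muscle RNA, had 10610 CPM, and without it the ratio of the genotype means went from 0.808 to 0.905.

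The genes most like the general macrophage genes over the 6 mice were found by the mean absolute difference of centred log2 CPM, over 18895 genes that reached 10 counts in each library. For the mean of *Adgre1*, *Cd68* and *Csf1r* they were *Ifi204*, *Reps2*, *Cd300ld*, *Agpat4* and *Folr2*, at mean differences of 0.0334 to 0.0364. *Folr2*, a folate receptor of resident macrophages, had 74.5, 52.6 and 72.4 CPM in wild-type mice and 75.6, 69.1 and 73.6 CPM in heterozygous mice. For *Timd4* they were *Gpr19*, *Nipal3*, *Trim30a*, *Klhl3* and *Evi2*, at 0.0317 to 0.0399. For *Lyve1* they were *Fkbp11*, *Tmem119*, *Srrm4*, *Dusp9* and *Serpinb6a*, at 0.0524 to 0.0772. With 6 libraries such likeness is a description only.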

How the data were processed

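The authors deposited a table of expected counts per gene (RSEM), 1 column per mouse and unscaled; each of the 332946 values was whole, so rounding changed none. The submitters' processing notes name cutadapt 4.8, STAR 2.7.8a, RSEM 1.3.3 and the build GRCm38. The labels and the study's methods name different library kits, 1 of them for 3′ ends, so counts were not corrected for gene length, and the gene with the most counts in a list need not be the most expressed. Genes counted in 1 or more libraries were compared with edgeR 4.0.16 (R 4.3.3; TMM, quasi-likelihood, genotype only, Benjamini-Hochberg over 32664 genes); called genes had an adjusted *P* under 0.05 and a fold above 1.5. Intervals come from the fitted SE. DESeq2 1.42.0 and limma-voom (limma 3.58.1), other scaling and filters, a replicate block and leaving out each mouse were alternatives. The steps were tested on simulated data. The genes and lists were chosen with earlier results of these data known. Outside the 10 genes and *Ebf2*, the genes named were those with an unadjusted *P* under 0.05 and no overlap, up to 4 a list, the one with the most counts in each list, and the 5 most like; *C1qa* to *C1qc*, *Csf1*, *Il34*, *Tyrobp*, *Spp1*, *Gpnmb* and lymphatic markers were named for their roles after values were seen. The labels do not say that replicate numbers pair mice, and the main comparison used no pairing. One gene that the rule names is not reported here.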

Additional observations from a re-analysis of the deposited data

How the results depend on the processing

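Of the 10 genes, 0 were called in any alternative run. With 1 mouse left out at a time, the median log2 fold change ran from -0.026 to 0.203. Without wild-type mouse 2, the value of 6 genes changed sign and was the lowest of such fits, which ran from -0.0775 to 0.229 for *Adgre1*, -0.0342 to 0.205 for *Cd68*, -0.0203 to 0.115 for *Csf1r*, -0.0933 to 0.340 for *Mrc1*, -0.0314 to 0.395 for *Cd163* and -0.139 to 0.454 for *Trem2*. For the others it ran from 0.0406 to 0.426 for *Lyve1*, 0.0689 to 0.251 for *Timd4*, 0.0507 to 0.276 for *Itgax* and 0.0863 to 0.193 for *Cd9*. The number of the 10 genes without overlap, 0 with all mice, ran from 0 to 3: it was 3 without wild-type mouse 1 (*Mrc1*, *Cd163* and *Lyve1*) and 1 without wild-type mouse 2 or heterozygous mouse 2 (*Timd4*) and without wild-type mouse 3 or heterozygous mouse 1 (*Cd9*), where 20.9% to 27.3% of the 18905 genes that reached 10 counts in each library do not overlap. Genes called in all lists rose from 0 by edgeR to 2 by DESeq2 with independent filtering and 1 without it; the cause was not tested. All genes called numbered 3 by edgeR, 98 and 92 by DESeq2 with and without independent filtering, 4 by limma-voom, 11 without heterozygous mouse 3 and 1 without wild-type mouse 2. Samples of the same replicate number correlated at 0.153, -0.278 and -0.162 in their deviations from the group means over 18905 genes. Samples of unlike number correlated at -0.317 to 0.395. These values show no pairing by number, but with 3 mice a genotype they cannot settle whether mice shared a litter or batch. With the replicate block the median of the 10 genes was 0.16, and 2 genes of the whole table were called. Against *C1qa*, *C1qb* and *C1qc* in place of the general macrophage genes, the balance was -0.010 for *Mrc1*, 0.057 for *Cd163*, 0.066 for *Lyve1*, 0.047 for *Timd4*, 0.081 for *Trem2*, 0.008 for *Itgax* and -0.004 for *Cd9*. With 1 mouse left out the balance ran from -0.056 to 0.181 for *Mrc1*, 0.025 to 0.235 for *Cd163*, 0.010 to 0.304 for *Lyve1*, -0.104 to 0.308 for *Timd4*, -0.080 to 0.333 for *Trem2*, -0.127 to 0.195 for *Itgax* and -0.029 to 0.149 for *Cd9*. Of the 10 genes *Trem2* had the fewest counts, 219 to 606; whether depth or the number of mice limits the precision was not tested.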
